A study of Drosophila melanogaster with 12 samples.

Results

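Aub and Piwi were compared as carriers of small RNA in one kind of somatic cell, through 2 of the 12 libraries of the study. Both came from krimp knockdown OSC, a cultured line of Drosophila melanogaster ovarian somatic cells, and there was 1 library for each protein. The first held RNA bound to ectopically expressed myc-Aub and the second RNA bound to ectopically expressed myc-Piwi. Both libraries were labelled as krimp knockdown, and OSC without the knockdown were not analysed here. Per the labels, myc-Aub was recovered with an Aub antibody and myc-Piwi with a myc antibody, so the protein and the antibody cannot be told apart in any difference below. The knockdown and the amounts of the tagged proteins were not measured in these files. All distinct sequences listed in either library were kept unless they shared 15 nt with 2S rRNA, a ribosomal RNA about as long as a piRNA. That RNA was taken to be the most abundant 30 nt sequence in the Aub library of krimp heterozygous ovaries. This left 574 of 580 sequences for myc-Aub and 857 of 860 for myc-Piwi, which were 1162 different sequences in all. The longest stretch that any of them still shared with 2S rRNA was 8 nt.

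PIWI-family proteins are guided by piRNAs, small RNAs that silence transposable elements. Somatic follicle cells of the ovary normally express Piwi and neither Aub nor AGO3, and their piRNAs are cut one after another from long single-stranded precursors, which gives most of them a U at the first base (1U). In the germline, Aub and AGO3 also amplify piRNAs by cutting each other's targets, a cycle called ping-pong. Its products overlap by 10 nt at their 5′ ends and often carry A at position 10 (10A). Aub placed in OSC has no germline partner of its own, so the libraries ask which somatic small RNAs it carries and how they differ from those of Piwi. Position 1 is the first base at the 5′ end, and bases are given as U although the files write T.

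The files listed 116014 reads for myc-Aub and 153885 for myc-Piwi, of which 2S rRNA took 6.78% and 1.08%. After its removal 108148 reads remained for myc-Aub and 152226 for myc-Piwi, and all shares below are of these remaining reads. The lowest count listed was 100, so a sequence missing from a library may have had up to 99 reads, and the sums are not library depths. The median sequence had 140 reads in each library, and 75.1% of myc-Aub and 77.8% of myc-Piwi sequences had fewer than 200. Many sequences thus lay close to the minimum, where a small difference in depth decides whether they are listed. Without replicates the differences have no replicate check, and p-values are not given. Intervals are exact (Clopper-Pearson) at 95% and cover counting error only. They treat reads as independent molecules, although PCR copies were not marked.

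Aub and Piwi carried many of the same small RNAs. Identical sequences listed in both libraries numbered 269, which was 46.9% of the myc-Aub sequences (interval 42.7 to 51.0) and 31.4% of the myc-Piwi sequences (28.3 to 34.6). They held 54.4% of myc-Aub reads and 41.7% of myc-Piwi reads. When a 5′ end was defined by the first 20 nt, 261 ends were listed in both libraries, 51.9% of the 503 myc-Aub ends and 34.3% of the 760 myc-Piwi ends. The larger share on the myc-Aub side came with the shorter list. With an equal minimum share of reads, which left 574 myc-Aub and 422 myc-Piwi sequences, the order turned to 31.4% of myc-Aub sequences and 42.7% of myc-Piwi sequences.

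Sequences with more reads were more often in both lists. Among sequences with 100 to 149 reads, 34.0% of 321 in myc-Aub and 20.6% of 486 in myc-Piwi were listed by the other library. At 150 to 299 reads the shares were 61.3% of 191 in myc-Aub and 39.0% of 295 in myc-Piwi, and at 300 to 499 reads 67.4% of 43 and 63.6% of 55. Of the sequences with 500 reads or more, 14 of 19 in myc-Aub and 19 of 21 in myc-Piwi were shared. The sequences with the most reads in either library were thus mostly listed for both proteins, while a missing partner near the read minimum says little. Abundance in total small RNA of OSC was not measured.

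**Figure D1:**
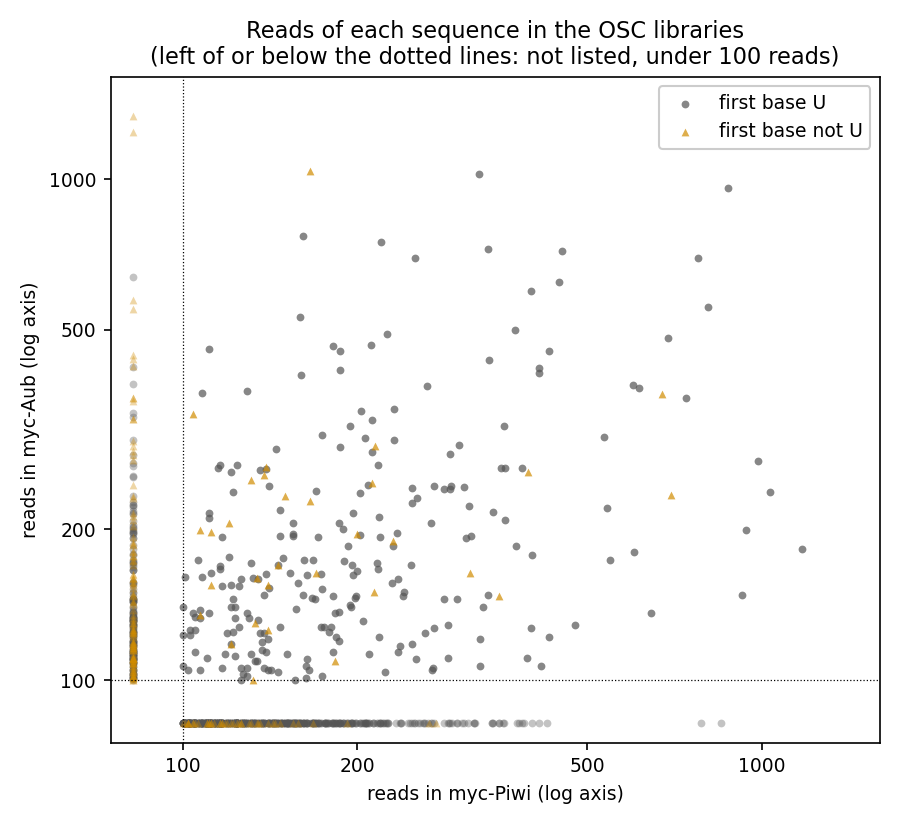
Each point is 1 sequence without 2S rRNA, with its reads in myc-Aub on the vertical log axis and in myc-Piwi on the horizontal log axis; circles begin with U and triangles with another base. The 269 sequences listed by both fill the inner area, and the strips left of and below the dotted lines hold the sequences that one library did not list, with many triangles in the myc-Aub strip at the left.

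Beyond identical sequences, every other member was placed by its closest match in the other library. In myc-Aub, 41 further sequences had a 5′ end that myc-Piwi listed, but another length. Another 115 overlapped a myc-Piwi sequence by at least 15 nt on the same strand with a shifted 5′ end, and 149 had no match. In myc-Piwi, 48 sequences shared a 5′ end at another length, 172 overlapped with a shifted end and 368 had no match. Sequences with no match held 21.4% of myc-Aub reads and 35.6% of myc-Piwi reads. The median distance was 2 nt from the nearest myc-Piwi end for myc-Aub sequences and 3 nt from the nearest myc-Aub end for myc-Piwi sequences. Only the nearest end was taken and an overlap of 15 nt was required, so the definition itself favours short shifts.

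The quantities of shared sequences varied between the proteins. Of the 269 shared sequences, 54 (20.1%) had a share of reads at least 2-fold higher in myc-Aub, and 15 (5.58%) a share at least 2-fold lower. The median ratio of shares, myc-Aub over myc-Piwi, was 1.36, with quartiles of 0.987 and 1.83 and a range of 0.220 to 8.81. Since the sums of listed reads are not depths, the level of this median depends on how many sequences each list holds. Counts in the 2 libraries were weakly related over these sequences, with a Spearman correlation of 0.36 and a Pearson correlation of 0.38 on log reads, given as a description because both lists stop at 100 reads. By 5′ end, 56 of 261 (21.5%) were at least 2-fold higher and 23 (8.81%) at least 2-fold lower in myc-Aub. The minimum of 100 reads holds for each sequence, so each length that one library did not list may have up to 99 reads there. With 99 reads granted to every such length, 49 ends were at least 2-fold higher and 13 at least 2-fold lower.

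The leading 5′ ends of each library were mostly listed in the other, but at other ranks. Of the 10 most abundant 5′ ends in myc-Aub, 8 were listed for myc-Piwi, and of the 10 in myc-Piwi, 9 were listed for myc-Aub. No end was among the leading 10 of both. These 10 ends held 12.2% of myc-Aub reads and 7.49% of myc-Piwi reads, so neither library was dominated by a few RNAs. In myc-Aub 7 of the 10 began with U and 3 had A at position 10, against 9 and 1 in myc-Piwi.

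The most abundant myc-Aub end began with A and had 2767 reads (2.56%) in myc-Aub and 166 reads (0.109%) in myc-Piwi, a ratio of 23.5. With 99 reads granted to each of its unlisted lengths the ratio was 8.41. In myc-Aub it was listed at 26 nt with 1334 reads, at 27 nt with 1039, at 22 nt with 275 and at 25 nt with 119, and in myc-Piwi at 27 nt alone. This end had the highest ratio among the 44 ends listed by both with at least 500 reads in one. The myc-AGO3 library of the same cells listed it too, with 718 reads. The second myc-Aub end began with G and had 2332 reads (2.16%) in 5 lengths, led by 25 nt with 1243 reads. Because myc-Piwi did not list it, the share of that 25 nt sequence was at least 17.7-fold higher in myc-Aub, taken against 99 reads in myc-Piwi. The ends at ranks 3 and 4 in myc-Aub began with U and were shared. One had 1627 reads in myc-Aub and 507 in myc-Piwi (ratio 4.52), and the other 1425 reads in myc-Aub and 876 in myc-Piwi (ratio 2.29).

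The most abundant myc-Piwi end began with U and showed a different mix of lengths with each protein. In myc-Aub it had 555 reads at 27 nt and 148 at 28 nt, against 808 reads at 27 nt and 924 at 28 nt in myc-Piwi. The second myc-Piwi end went the same way, with 174 reads at 25 nt and 159 at 27 nt in myc-Aub, against 235 at 27 nt, 850 at 28 nt and 205 at 29 nt in myc-Piwi. Neither of its longer forms was listed for myc-Aub, and its 25 nt form was not listed for myc-Piwi. The lowest ratio among the 44 abundant shared ends, 0.220, belonged to a 29 nt RNA that began with U, with 183 reads in myc-Aub and 1172 in myc-Piwi. Its ranks were 169 in myc-Aub and 4 in myc-Piwi. The next 4 lowest ratios ran up to 0.322 and all 5 of these ends began with U. One of them, at 0.246, had 4 lengths in myc-Piwi and 1 in myc-Aub, and its ratio was 0.851 with unlisted lengths at 99 reads. Above them, the 4 ends after the leading one on the high side had ratios of 5.76 to 6.72, and 3 of those began with U. With unlisted lengths at 99 reads their ratios were 2.57 to 6.72.

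The most abundant ends that 1 library left out differed in their first base. Of the 5 most abundant ends listed for myc-Aub and not for myc-Piwi, 4 began with G, with 2332, 802, 717 and 643 reads in myc-Aub, and the fifth began with U and had 639. All 5 of the most abundant ends listed for myc-Piwi and not for myc-Aub began with U, with 893, 659, 552, 507 and 500 reads in myc-Piwi. Bounds were taken for the most abundant sequence of each end against 99 reads in the other library. Those of the myc-Aub ends were at least 3.48-fold to 17.7-fold higher in myc-Aub, and those of the myc-Piwi ends at least 1.80-fold to 5.63-fold lower in myc-Aub. The sequences of these ends passed the read minimum in 1 library only. Their first bases are part of the 1U difference given below and are not separate support for it. The G ends with 2332 and 802 reads also held a motif that many tRNAs carry, described below.

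U at position 1 was less frequent with Aub. In myc-Aub 73.1% of reads began with U (interval 72.8 to 73.3), against 92.1% in myc-Piwi (91.9 to 92.2), a difference of -19.0 percentage points. With 99 reads granted to each sequence that only the other library listed, the difference was -6.95 points. With each sequence counted once the shares were 73.5% in myc-Aub (69.7 to 77.1) and 91.2% in myc-Piwi (89.2 to 93.1). G was the first base of 11.7% of myc-Aub reads and 1.89% of myc-Piwi reads, C of 9.01% and 2.87%, and A of 6.22% and 3.17%.

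Shared sequences have the same first base in both libraries, so among them only read counts could make the 1U share differ. The rest of the difference had to lie among sequences that the other library did not list. Those sequences passed the minimum of 100 reads in 1 library only. Among the 269 shared sequences 238 began with U, which gave 88.1% of their myc-Aub reads and 90.0% of their myc-Piwi reads. Sequences listed for one library only began with U in 55.1% of myc-Aub reads, against 93.6% of myc-Piwi reads. By sequence, 1U was found in 75.6% of myc-Aub sequences that shared a 5′ end at another length (59.7 to 87.6), in 56.5% of those with a shifted end (47.0 to 65.7) and in 59.1% of those with no match (50.7 to 67.0). The matching myc-Piwi values were 93.8% (82.8 to 98.7), 88.4% (82.6 to 92.8) and 94.3% (91.4 to 96.4). Myc-Aub sequences without 1U that myc-Piwi did not list numbered 121 and held 20.5% of all myc-Aub reads. Myc-Piwi sequences without 1U that myc-Aub did not list numbered 44 and held 3.75% of myc-Piwi reads.

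**Figure D2:**
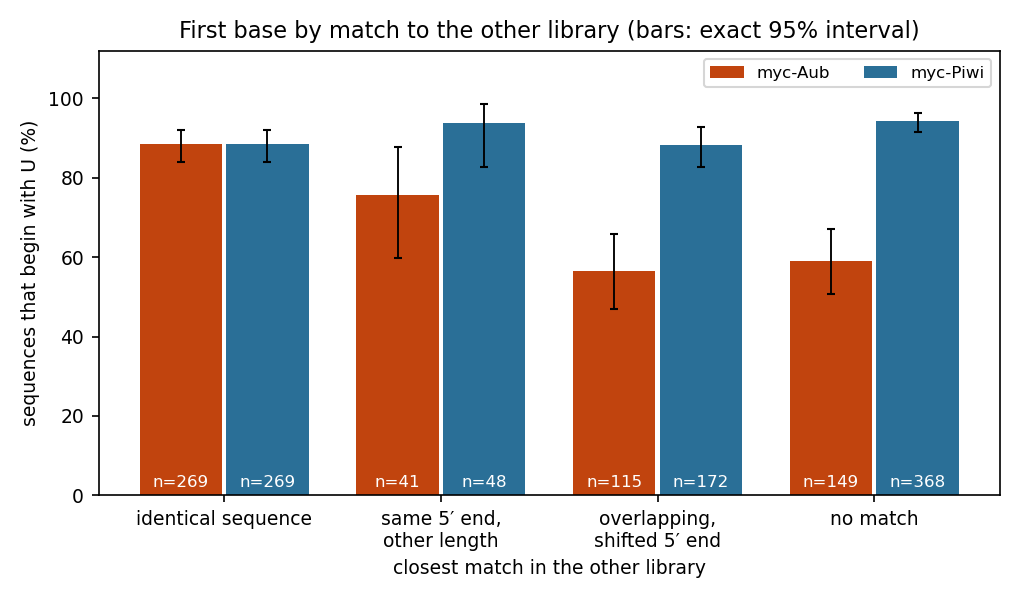
Share of sequences that begin with U, each sequence counted once, by closest match in the other library; bars are myc-Aub at left and myc-Piwi at right with exact 95% intervals, and n is the number of sequences. Identical sequences give the same bar (88.5%) by construction, and myc-Aub falls to 56.5% and 59.1% in the last 2 classes where myc-Piwi stays at 88.4% and 94.3%.

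The myc-Aub sequences without 1U were of several kinds. Their 29134 reads were spread over 126 ends, and the 5 leading ends held 24.9% of them. Of the 152 sequences, 31 were identical to a myc-Piwi sequence and 10 shared a 5′ end with one. Another 50 overlapped a myc-Piwi sequence with a shifted end, and 61 had no match. Among the 50 shifted ones the nearest myc-Piwi end lay within 3 nt in 36, and in 43 the myc-Piwi sequence at that end began with U. These 43 were 86% of the 50, and 91.2% of all myc-Piwi sequences began with U. The count thus does not set these neighbours apart from other myc-Piwi sequences. For comparison, of the 65 shifted myc-Aub sequences that began with U, 45 lay within 3 nt and the neighbour began with U in 59.

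Abundant myc-Aub sequences were listed for myc-Piwi more often when they began with U. At 150 to 299 reads 96 of 139 sequences with 1U were listed for myc-Piwi, against 21 of 52 without it. At 300 to 499 reads the counts were 27 of 32 with 1U and 2 of 11 without, and at 500 reads or more 13 of 14 and 1 of 5. Some of these are length variants of 1 end. Counted by 5′ end, 22 of 24 ends with 1U and 500 reads or more were listed for myc-Piwi, against 3 of 9 without it. In myc-Piwi the shares went the other way. At 150 to 299 reads 105 of 279 myc-Piwi sequences with 1U were listed for myc-Aub, against 10 of 16 without it. The shared sequences are the same in both libraries, so these counts restate the 1U difference and are not separate support for it. A motif that many tRNAs carry in the D arm, TAGCTCAG, was searched after the sequences had been seen, on both strands. It was held by the 7 length variants of 2 myc-Aub ends, the G ends at ranks 2 and 10 described above, with 2.90% of myc-Aub reads. No myc-Piwi sequence held it, and 0.176% of myc-AGO3 reads from OSC did. In ovaries of krimp heterozygotes the share of reads was 0.0838% in Aub, 0.0432% in Piwi, 0.0876% in AGO3 and 0.608% in total small RNA. In krimp mutants the share was 2.17% in Aub, 0.136% in Piwi and 1.14% in total small RNA. The AGO3 libraries of OR control and aub mutant ovaries had 0.514% and 0.945%. No myc-Aub or myc-Piwi sequence held it on the reverse strand. In krimp heterozygous ovaries the sequences holding it forward and reverse numbered 4 and 4 in Aub and 22 and 22 in Piwi. They numbered 13 and 11 in AGO3 and 101 and 13 in total small RNA. The heterozygous Aub, Piwi and AGO3 shares thus cannot be told from stray matches to these letters. In krimp mutants the counts were 47 and 0 in Aub, 31 and 3 in Piwi and 137 and 0 in total small RNA. In AGO3 they were 3 and 0 in OR and 8 and 3 in aub mutant ovaries. A match to these letters does not identify a tRNA, and the part of such fragments in the 1U difference was not tested.

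Position 10 differed far less between the libraries than position 1. A was at position 10 in 22.7% of myc-Aub reads (22.4 to 22.9) and 23.3% of myc-Piwi reads (23.1 to 23.6), a difference of -0.661 percentage points. With each sequence counted once, the shares were 21.6% (18.3 to 25.2) and 25.1% (22.2 to 28.1), and the interval of that difference, combined from the exact bounds, -7.97 to 1.12 points, included 0. The sign of the read difference turned to 1.13 points with an equal minimum share of reads. Across the other 18 positions from 2 to 20, A had a median share of 24.5% in myc-Aub and 24.7% in myc-Piwi. It exceeded the 10A share at 12 of these positions in myc-Aub and at 13 in myc-Piwi. In krimp heterozygous ovaries, for comparison, 46.3% of Aub reads had 10A after the same removal of 2S rRNA, against 27.3% of Piwi reads. In krimp mutant ovaries 60.0% of Aub reads and 28.4% of Piwi reads had 10A.

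Hardly any sequences had ping-pong partners. First 10 nt that were the reverse complement of the first 10 nt of a listed sequence were searched, with the sequence itself included. Within the same library they were found for 2 of 574 in myc-Aub and 1 of 857 in myc-Piwi, and between the libraries for none. Such a match is mutual, so the 1 in myc-Piwi can only have matched itself. Whether the 2 in myc-Aub matched themselves was not checked. At 11 nt there were none in any of these pairings. No sequence of either library shared 15 nt with the reverse complement of any other in the 2 libraries. By the same count 42.9% of 3266 Aub sequences in krimp heterozygous ovaries had an AGO3 partner at 10 nt and 3.09% at 11 nt. The ovary lists are longer, which favours partners there. Sequences under 100 reads were not listed, so rarer partners in OSC were not detectable.

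Other early positions differed more than position 10. Among reads, A at position 4 was 35.7% in myc-Aub and 22.6% in myc-Piwi, A at position 2 was 47.2% and 35.5%, and G at position 5 was 17.3% and 33.4%. These 3 were the only differences over 10 percentage points among 4 bases at positions 2 to 20, and they were picked after all of them had been seen. They were also seen with the sequences without 1U left out. Among sequences beginning with U, each counted once, A at position 2 was found in 42.9% of 422 in myc-Aub (38.1 to 47.8) and 32.0% of 782 in myc-Piwi (28.7 to 35.4). A at position 4 was found in 36.0% (31.4 to 40.8) and 23.5% (20.6 to 26.7), and G at position 5 in 19.4% (15.8 to 23.5) and 33.0% (29.7 to 36.4). Among the 1U sequences that one library did not list, G at position 5 was in 19 of 184 myc-Aub sequences (10.3%) and 195 of 544 myc-Piwi sequences (35.8%). The 238 shared sequences had G there in 26.5%, and A at position 4 in 33.2%, between 39.7% for myc-Aub only and 19.3% for myc-Piwi only. A at position 2 was most frequent in the shared sequences, at 44.5%, with 40.8% for myc-Aub only and 26.5% for myc-Piwi only. Shared sequences have the same bases in both libraries, so counted once they cannot differ at any position. The other sequences passed the read minimum only in the library that listed them. Their values thus restate the differences above and are not separate support for them.

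**Figure D3:**
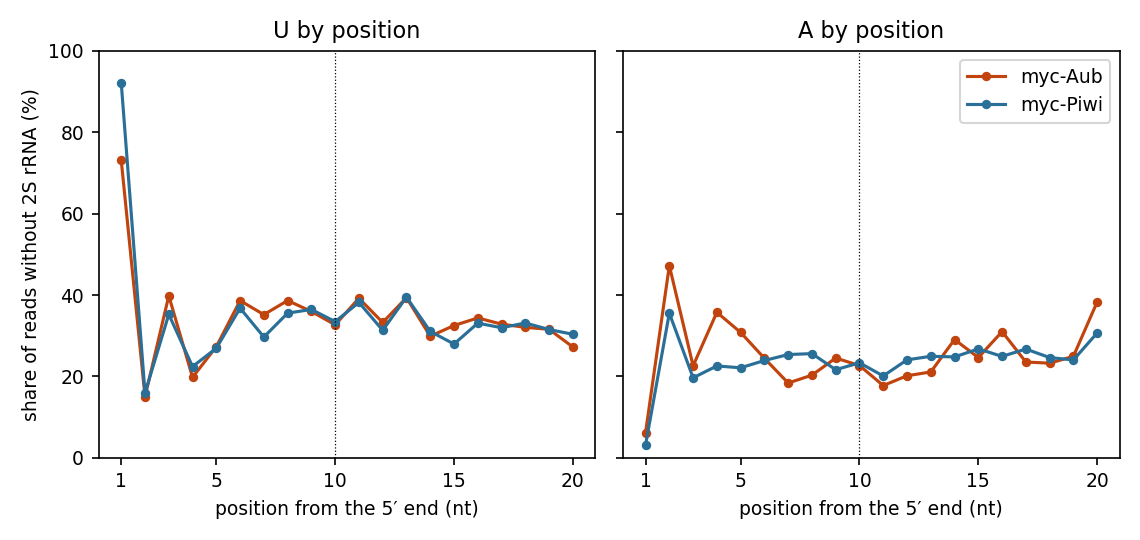
Share of reads with U (left panel) and with A (right panel) at positions 1 to 20, in percent of reads without 2S rRNA, for myc-Aub and myc-Piwi; the dotted line marks position 10. U at position 1 is 73.1% in myc-Aub and 92.1% in myc-Piwi, A is higher in myc-Aub at positions 2 and 4, and the curves meet at position 10.

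Aub carried shorter RNAs than Piwi. The mean length over reads was 25.7 ± 1.50 nt in myc-Aub and 26.6 ± 1.34 nt in myc-Piwi (SD over reads). The most common length was 26 nt in myc-Aub, with 26.9% of reads, and 27 nt in myc-Piwi, with 28.7%, closely followed there by 26 nt with 28.5%. Reads of up to 24 nt made up 17.9% of myc-Aub (17.6 to 18.1) and 4.51% of myc-Piwi (4.41 to 4.62), and reads of 27 nt or longer 30.1% (29.8 to 30.3) and 51.5% (51.2 to 51.7). The gap was also seen within each class of first base. Reads beginning with U averaged 25.8 nt in myc-Aub and 26.5 nt in myc-Piwi, and the other reads 25.7 nt and 26.6 nt.

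**Figure D4:**
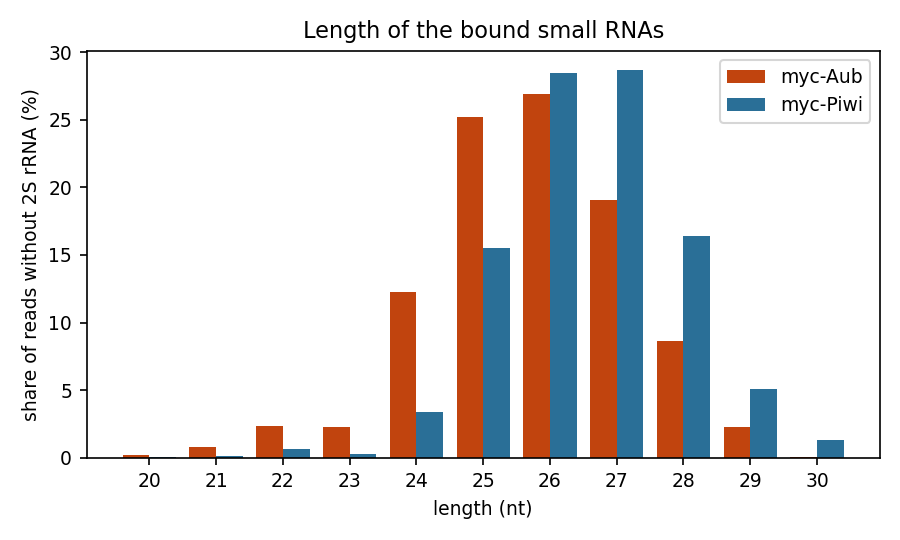
Share of reads without 2S rRNA at each length from 20 to 30 nt, in percent, with myc-Aub at left and myc-Piwi at right of each pair. The myc-Aub bars are higher from 20 to 25 nt and the myc-Piwi bars from 26 nt upward.

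Shorter RNA was also seen where the 5′ end was held fixed, so that only the 3′ end could differ. Over the 261 ends listed in both, the mean length was 26.03 nt in myc-Aub and 26.26 nt in myc-Piwi, a difference of -0.231 ± 0.673 nt (SD over ends, which are not replicates). The myc-Aub form was shorter at 57 ends, longer at 15 and of equal length at 189, so the median difference was 0. Each of the 189 equal ends had 1 listed sequence per library. Where either library listed several sequences at an end, which held for 66 ends, the difference was -0.671 ± 0.944 nt, with 51 ends shorter and 15 longer in myc-Aub. The most abundant length was shorter in myc-Aub at 23 ends and longer at 3, and a gap of 3 nt was the most frequent one, at 10 ends. When lengths that one library did not list were granted 99 reads there, the mean difference shrank to -0.044 nt.

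The lengths that only 1 library listed at a shared end, having 100 reads or more there alone, fell on opposite sides. They are part of the difference above and are not separate support for it. The 41 sequences listed for myc-Aub only averaged 25.2 ± 1.72 nt, and the 48 listed for myc-Piwi only 27.5 ± 1.30 nt, with the 269 listed by both between them at 26.1 ± 1.28 nt (SD over sequences). Up to 24 nt long were 14 of the 41 and 1 of the 48, and 27 nt or longer were 8 of the 41 and 37 of the 48. Set against a length that both libraries listed at the same end, 25 of 34 such myc-Aub sequences were shorter and 9 longer, while 5 of 40 myc-Piwi sequences were shorter and 35 longer.

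**Figure D5:**
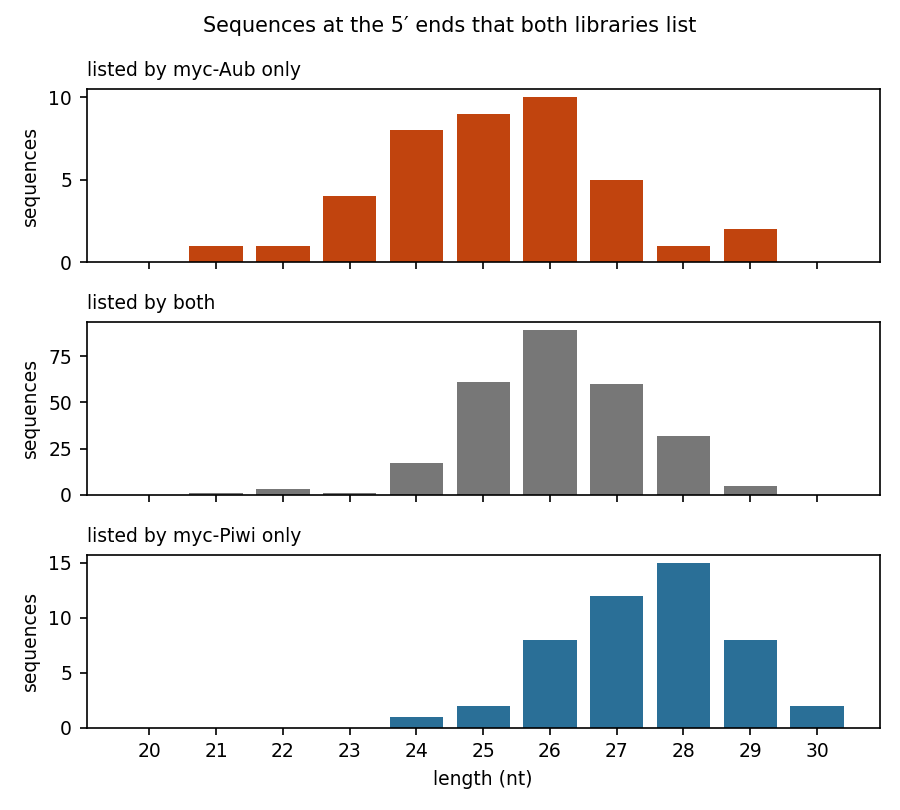
Number of sequences at each length, in nt, among the 261 5′ ends that both libraries list, for sequences listed by myc-Aub only (41, top), by both (269, middle) and by myc-Piwi only (48, bottom), with a separate count axis in each panel. The myc-Aub panel peaks at 26 nt with a tail to shorter lengths, and the myc-Piwi panel peaks at 28 nt.

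Both libraries listed the same 2 lengths, 1 nt apart, at a shared end in 11 cases. The ratio of longer to shorter reads was lower in myc-Aub in 9 pairs and higher in 2, with medians of 0.928 in myc-Aub and 1.17 in myc-Piwi. Some pairs come from the same end and are not independent. The widest gap as a fold was at the leading myc-Piwi end, where the 28 nt form had 0.267 reads per 27 nt read in myc-Aub and 1.14 in myc-Piwi. Not every end went this way, since one pair of 27 and 28 nt had 0.747 in myc-Aub and 0.477 in myc-Piwi.

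In whole ovaries Aub and Piwi differed in length in the same direction. At 974 ends listed in both krimp heterozygous libraries, Aub forms were -0.497 ± 0.884 nt from Piwi forms (SD over ends), and at 655 ends in krimp mutant ovaries -0.562 ± 1.01 nt. In the OSC, myc-AGO3 and myc-Piwi differed by 0.100 ± 0.786 nt at 49 shared ends. These groups also had 1 library each, so the differences between these values were not tested. In ovaries the proteins carried no tag per the labels and were recovered with Aub and Piwi antibodies, and the source label of the krimp mutant Aub library also reads control. The myc-AGO3 complexes were recovered with an AGO3 antibody.

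The other libraries of the study listed part of these sequences. The Piwi library of krimp mutant ovaries, with 30851 sequences, listed 85 of the 305 found for myc-Aub only (27.9%), 121 of the 269 found for both (45.0%) and 237 of the 588 found for myc-Piwi only (40.3%). The Aub library of krimp heterozygous ovaries, with 3266 sequences, listed 11 of the 305, 6 of the 269 and none of the 588. Of the 11, 9 did not begin with U. The Aub library of krimp mutant ovaries likewise listed 14 of the 121 myc-Aub sequences without 1U that myc-Piwi did not list. It listed 3 of the 184 such sequences with 1U. The skew was not particular to Aub libraries. The AGO3 library of krimp heterozygous ovaries listed 11 of the 121 and 2 of the 184, and that of aub mutant ovaries 7 and 0. The Piwi library of krimp mutant ovaries listed more of both, 32 of the 121 and 53 of the 184. The myc-AGO3 library of OSC, in which 34.8% of reads began with U and 2S rRNA was 45.7% of listed reads, listed 20 of the 305, 47 of the 269 and 5 of the 588. Without any sequence that shared 15 nt with a listed myc-AGO3 sequence, which dropped 128 myc-Aub and 120 myc-Piwi sequences, the 1U shares were 73.1% in myc-Aub and 91.7% in myc-Piwi.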

How the data were processed

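The authors deposited, for each library, distinct small RNA sequences of 20 to 30 nt with whole-number read counts that were not normalized and not below 100. Per the labels' protocols, PIWI proteins were immunopurified, their RNA was separated on denaturing gels and the TruSeq Small RNA kit was used for libraries of 18 to 29 nt, a limit that lies within the upper lengths compared. The genome build was dm3 per the submitters' processing notes; aligner, trimming and filters were not given in the sources used here. No genome was used here, and sequences are described, not printed.

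Groups came from the sample titles. Sequences sharing 15 nt with 2S rRNA were dropped, shares were taken of the remaining counts, and 5′ ends were defined by the first 20 nt. Named ends were the 10 most abundant of each library, the 5 highest and 5 lowest ratios among shared ends with at least 500 reads in one library, and the 5 most abundant ends that the other library did not list. MicroRNAs were to be named too but were not identified here. The planned check of marker loci was not made. The libraries, measures and lists were chosen with earlier results of these data known. With 1 library a group no test was run. Sharing, the length difference at the same 5′ end and shifted ends were tested on simulated data. The 1U count was compared there only with the same count, a check that could not fail. The 10A share and the search for ping-pong partners were not tested on simulated data. Python 3.11.15, numpy 2.4.6, scipy 1.17.1 and matplotlib 3.10.9 were used.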

Additional observations from a re-analysis of the deposited data

How the results depend on the processing

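No paired analysis was possible because each group had 1 library. With 1 library and a minimum of 100 reads, the values describe these libraries only, and sequences near the minimum decide the sharing. The planned removal of microRNAs was not run. A shared stretch of 12 nt for 2S rRNA gave the same values, and so did a 5′ end of 18 nt for the length difference, the 1 result it was run on.

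Counting each sequence once gave differences (myc-Aub minus myc-Piwi) of -17.7 percentage points in 1U and -3.48 in 10A. Only 23 to 29 nt gave shared reads of 54.7% in myc-Aub and 41.9% in myc-Piwi and -1.28 points in 10A. Without removal of 2S rRNA these were 56.9%, 42.2% and -1.77 points, with -17.6 points in 1U. An equal minimum share of reads gave 31.4% of myc-Aub and 42.7% of myc-Piwi sequences shared, with 41.0% and 51.8% of reads, -20.9 points in 1U and a reversed 10A difference of 1.13 points. Without the leading end of each library, shared myc-Piwi reads were 40.9%, 1U -17.3 points and 10A -2.74 points. Matching by the first 20 nt gave 54.0% of myc-Aub and 37.0% of myc-Piwi sequences, and 61.9% and 47.1% of reads.

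Both remaining alternatives were chosen after seeing the data. Granting 99 reads to each sequence that only the other library listed gave -0.044 nt at the same 5′ end, -6.95 points in 1U and a reversed 1.01 points in 10A. At shared 5′ ends it left 49 at least 2-fold higher and 13 at least 2-fold lower in myc-Aub. Without sequences related to myc-AGO3 sequences, 52.2% of myc-Aub reads, 27.5% of myc-Piwi sequences and 36.0% of myc-Piwi reads were shared, with -18.6 points in 1U and -1.60 in 10A. The 1U difference stayed negative under each alternative run, and the length difference too. The cause of the 2 reversals was not tested.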

Other observations

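The low share of G at position 5 in myc-Aub had a counterpart in ovary libraries that were not used to notice it. Among sequences beginning with U, each counted once, G was at position 5 in 20.1% of Aub sequences (18.5 to 21.8, of 2380) and 26.6% of Piwi sequences (26.2 to 27.03, of 39535) in krimp heterozygous ovaries. In krimp mutant ovaries the shares were 19.1% (17.4 to 20.8, of 2112) and 25.9% (25.3 to 26.4, of 23535). A at position 4 was higher in Aub than in Piwi in each of these ovaries, at 27.02% against 24.6% in heterozygous and 31.3% against 24.6% in mutant ovaries. A at position 2 went both ways, at 31.7% against 27.4% in heterozygous and 24.8% against 28.9% in mutant ovaries. In OSC counted by 5′ end, so that length variants count once, G at position 5 was in 19.1% of 377 myc-Aub ends (15.3 to 23.4) and 31.4% of 690 myc-Piwi ends (28.0 to 35.1). Each group had 1 library, the proteins were recovered with different antibodies, and no cause was tested.

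The 3′ ends were close in base composition. The last base was C in 37.3% of myc-Aub and 41.1% of myc-Piwi reads, and U in 21.3% and 20.2%. Where a longer form of the same 5′ end was listed, the base after the shorter form was U for 46.5% of 71 myc-Aub sequences and 44.7% of 94 myc-Piwi sequences. It was G for 11.3% of these in myc-Aub and 21.3% in myc-Piwi. Sequences with several starts at the same 3′ end, defined by the last 20 nt, held 36.6% of myc-Aub reads and 35.5% of myc-Piwi reads.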
